A study of Rattus norvegicus with 13 samples.

Results

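Rat pancreatic islets that had received an adenovirus carrying mouse Pdx1 were compared with islets that had received a control adenovirus carrying beta-galactosidase (bGAL). The contrast took every array labelled with either virus, 3 Pdx1 and 5 bGAL arrays, which are 8 of the 13 arrays of the study. The other 5 arrays came from islets given an adenovirus with hamster Nkx6.1 and were used only for a direct comparison of the 2 factors. Islets came from male Sprague-Dawley rats of about 250 g, with about 200 islets per condition. They stood with virus for 18 h, at the same dose in particles per ml for all 3 viruses. They were then kept for 60 h more in fresh medium with 8 mM glucose and 10% serum. The 3 viruses used the same CMV promoter, which is active in any cell type that the virus enters, so nothing in the vector confined the factor to beta cells. Every array held the labelled RNA of one islet pool, in Cy5, together with Cy3-labelled rat reference RNA. Per the labels, each array of a group is a biological replicate from an independent islet isolation.

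Pdx1 is a homeodomain transcription factor. The embryonic pancreas does not form without it, and adult beta cells need it to keep their identity, where it binds the promoters of the insulin genes, of Iapp, which encodes amylin, and of Slc2a2, which encodes the glucose transporter of rodent beta cells. Most adult islet cells are outside the cell cycle. Pdx1 is normally present in beta cells and in part of the delta cells and is absent from alpha cells.

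The values are log2 ratios of islet over reference RNA, so 0 means equal signal in both, and a difference of 1 between groups is 2-fold. The arrays carried 0 probes with the symbol Pdx1, so the transferred factor could not be checked by name. Whether any of the 11155 probes without a symbol reads it is unknown. Ins1, Ins2, Iapp, Gcg, Sst and Ppy, the hormone genes that define islet endocrine cells, had log2 ratios of at least 3.30 on every one of the 8 arrays. A technical feature ran almost parallel to the groups. The share of probes without a value was 35.4% to 59.6% on bGAL 1, 2, 3 and 5, and 0.23% to 15.5% on bGAL 4 and the 3 Pdx1 arrays. Across the 10036 probes measured by each of the 8 arrays, the spread (SD across probes) was 1.90 to 1.97 on the first 4 arrays and 1.44 to 1.49 on the others. Across probes, the Pdx1 arrays correlated with bGAL 4 at 0.922 to 0.923 and with the other bGAL arrays at 0.820 to 0.892. Genes are not independent replicates in these correlations. With this array set as a block in the fit, the difference rests on the 3 Pdx1 arrays against bGAL 4 alone, and that value is given beside the main ones as the within-set value.

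In limma's test 109 of 17965 probes passed at an adjusted p under 0.05 (0.607%), 94 higher (0.523%) and 15 lower (0.0835%) with Pdx1. Of these, 74 carried a gene symbol, and the group values of all 109 did not overlap, as was the case for 19.5% of all probes tested (8.02% higher and 11.5% lower with Pdx1). An unadjusted p under 0.05 was found for 2851 probes, 1080 higher and 1771 lower. With 1 probe a gene, 9800 genes were tested, of which 0.612% passed as higher and 0.102% as lower, while 5.87% were higher and 10.7% lower at an unadjusted p under 0.05. All 109 kept their direction within the array set, but their lack of overlap with bGAL 4 fixed this in advance, so it adds no support. Their median absolute difference was 1.98 over the 8 arrays and 1.88 against bGAL 4 alone, but with a single bGAL array on that side only 2 probes passed (0.0111%). Each array weighed on the number of calls. It was 62 to 73 without bGAL 1, 2, 3 or 5, rose to 771 without bGAL 4 (245 higher and 526 lower), and was 13, 12 and 17 without Pdx1 1, 2 and 3.

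**Figure D1:**
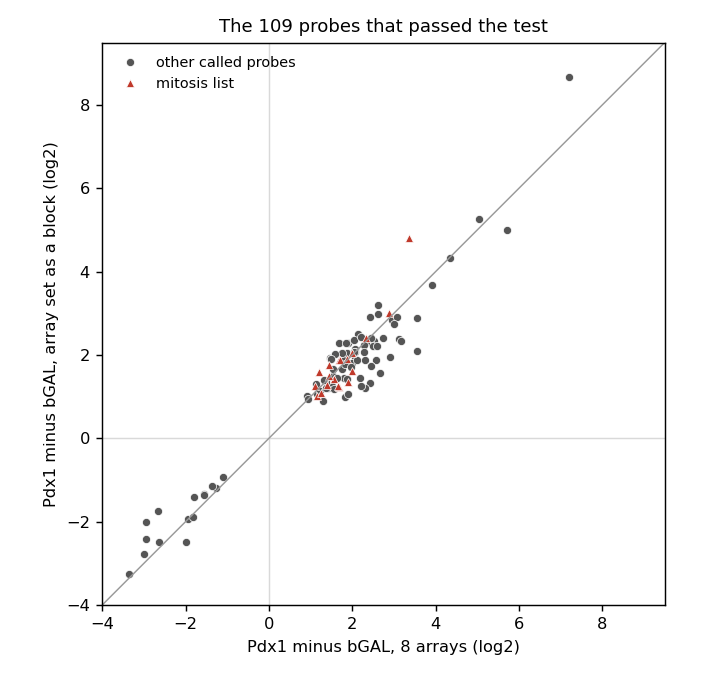
Each point is one of the 109 probes that passed. The x axis gives the log2 difference of the 3 Pdx1 arrays from the 5 bGAL arrays, and the y axis the same difference with the array set as a block, which compares Pdx1 with bGAL 4. Triangles are genes of the mitosis list and the line marks equal values. All points lie in the lower left or upper right quadrant, which the lack of overlap between the groups requires. Nts, at 7.21 and 8.67, is the uppermost point.

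The gene with the largest rise was Nts, which encodes neurotensin, a peptide of neurons and of enteroendocrine cells of the gut. Its log2 ratio was -0.026, -0.0048, -2.18 and -0.69 on bGAL 2, 3, 4 and 5, was empty on bGAL 1, and was 6.38, 6.83 and 6.26 on the 3 Pdx1 arrays. Nts was thus at or below the reference in every control with a value and far above it with Pdx1, with no overlap. The rise was 7.21 (SE 0.531, 148-fold, limma adjusted p = 0.00322), and 8.67 within the array set (adjusted p = 0.0041). It passed in all 8 fits that left out 1 array and in 18 of 19 alternatives, with adjusted p between 6.24e-04 and 0.133, the highest when only arrays with few empty values were used. Of its bGAL values 1 lay within 0.01 of 0, a ratio that 2 channels without signal would also give, so the fold is uncertain.

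The 250 bases before the start of Nts are shown because no other probe that passed moved as far. Sequences here are from RefSeq on the rat assembly GRCr8 and run 5′ to 3′ on the gene's strand. Capitals mark TGAGTCA, the letters of the AP-1 site, which 3.98% of all 27457 promoter windows of this length hold on either strand.
Nts (chr7:39460889-39461138, minus strand): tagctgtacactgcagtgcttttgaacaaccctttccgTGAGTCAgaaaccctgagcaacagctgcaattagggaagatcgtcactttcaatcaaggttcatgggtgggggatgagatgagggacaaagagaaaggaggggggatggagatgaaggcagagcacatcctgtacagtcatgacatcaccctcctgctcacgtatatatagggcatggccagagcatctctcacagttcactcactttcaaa

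Among 28 genes of neuropeptides and gut hormones tested, Nts and Penk rose and Calcb and Gast fell, beside 0.612% of all genes that rose and 0.102% that fell. This list was chosen with earlier results of these data known, so the count is no support for a neuropeptide pattern. At an unadjusted p under 0.05, 4 of the 28 were higher and 8 lower, beside 5.87% and 10.7% of all genes. The list's median difference was -0.34 beside -0.11 over all 9800 genes and -0.12 within the array set, but 0.58 under quantile normalization and 0.105 scaled to one spread, so its sign depends on the scaling. Penk, which encodes the enkephalin precursor, had ratios of -3.22, -2.48, -2.64, -2.93 and -3.00 with bGAL and -1.27, -0.81 and -1.06 with Pdx1. It stayed below the reference in both groups, which did not overlap, and rose by 1.81 (SE 0.221, adjusted p = 0.0139, 0.00679 to 0.333 over the alternatives; within-set value 1.88).

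Calcb, which encodes the beta form of calcitonin gene-related peptide, went the other way. Its ratios were 3.90, 3.20, 2.95, 2.07 and 2.92 on bGAL 1 to 5 and 0.020, 0.44 and -0.28 with Pdx1. All controls were above the reference and the Pdx1 arrays were near it, a difference of -2.95 (SE 0.379, adjusted p = 0.017, 0.00538 to 0.534 over the alternatives), or -2.01 within the array set. Gast, the gene of the gut hormone gastrin, stood at 2.71 and 3.17 on bGAL 4 and 5, was empty on bGAL 1 to 3, and was -0.19, -0.0005 and 0.0062 with Pdx1. Its difference was -3.00 (SE 0.26, adjusted p = 0.0194, 0.00789 to 0.274). With 2 of the 3 Pdx1 values within 0.01 of 0, the size of this fall is uncertain, although the within-set value was -2.77.

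**Figure D2:**
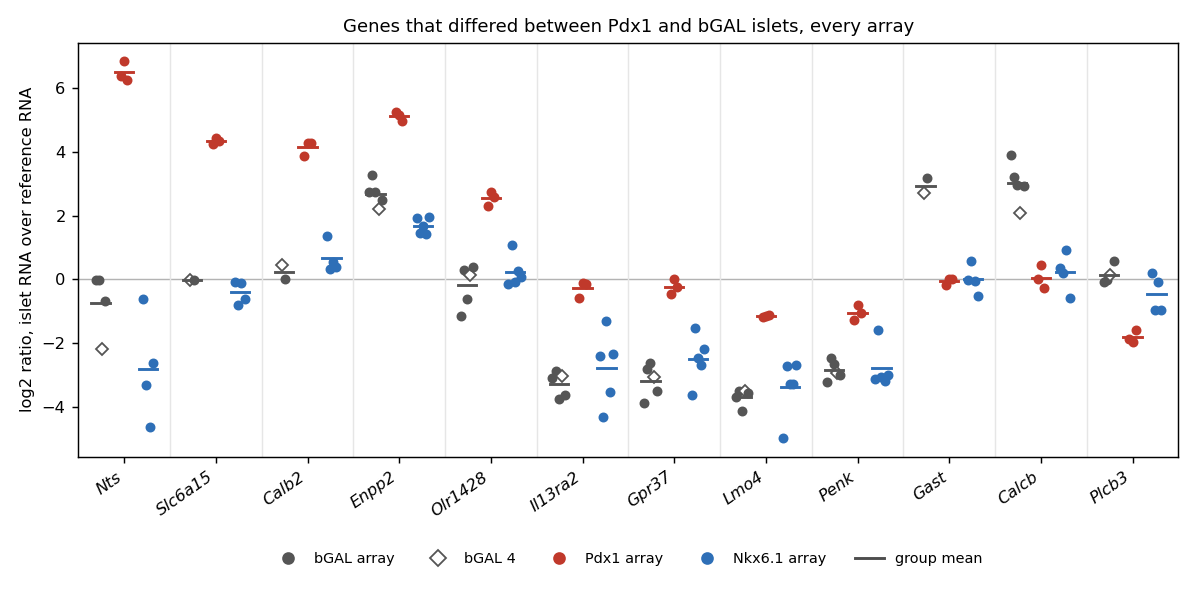
Log2 ratio of islet over reference RNA on every array for 12 genes that differed between Pdx1 and bGAL. Grey points are bGAL arrays with bGAL 4 as an open diamond, red points Pdx1 arrays, blue points Nkx6.1 arrays, and short bars group means. The 3 Pdx1 values lie apart from all bGAL values for each gene, and for Gast and Calcb the Nkx6.1 values lie beside the Pdx1 values.

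Slc6a15 and Calb2, better known from neurons, rose from near the reference level, with values on only 2 control arrays. Slc6a15, which encodes a neutral amino acid transporter of brain, was -0.0047 and -0.0029 on bGAL 4 and 5 and 4.24, 4.44 and 4.33 with Pdx1, a rise of 4.34 (SE 0.226, adjusted p = 0.00458, 6.20e-04 to 0.22 over the alternatives). Calb2, which encodes the calcium-binding protein calretinin, was 0.46 and -0.00011 on the same controls and 3.88, 4.27 and 4.26 with Pdx1, a rise of 3.91 (SE 0.282, adjusted p = 0.0114, 0.0029 to 0.274). In both genes the Pdx1 arrays were high and close together. Both Slc6a15 control values and 1 of those for Calb2 lay within 0.01 of 0, and the 3 empty control arrays leave the control level poorly known. Against bGAL 4 alone the differences were 4.34 and 3.68.

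Enpp2, the gene of autotaxin, a secreted enzyme that makes lysophosphatidic acid, was already above the reference in controls. Its ratios were 2.73, 3.27, 2.74, 2.20 and 2.48 with bGAL and 5.24, 5.14 and 4.95 with Pdx1. The lowest Pdx1 value was well above the highest control, a rise of 2.43 (SE 0.249, 5.38-fold, adjusted p = 0.00634, 2.81e-04 to 0.274 over the alternatives), or 2.92 within the array set. Tubb6, a beta-tubulin gene, rose by 3.54 (SE 0.576, adjusted p = 0.0427) but by 2.10 against bGAL 4, which at -2.81 was the highest of its controls. These 4 genes were those that passed among 41 neuronal genes tested, beside 0.612% of all genes that rose. The members of this list were chosen with earlier results of these data known, so this count is no support for a neuronal pattern. At an unadjusted p under 0.05, 8 of the 41 were higher and 6 lower, beside 5.87% and 10.7% of all genes. A positive difference was found for 20 of them. Those lower included Nefm (-3.45), Slc18a1 (-3.15), Dcx (-2.72) and Cntn1 (-2.10), with within-set values of -0.30, -0.41, 0.12 and -1.56. The list's median was -0.09, but 0.31 within the array set and 0.17 under quantile normalization.

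Among receptor and signalling genes, Gpr37, Il13ra2 and Adcy2 rose and Adcy9 fell. Gpr37, an orphan-type receptor linked to prosaposin, stood at -3.88 to -2.62 on the 5 controls (median -3.05) and at -0.45, 0.022 and -0.25 with Pdx1, a rise of 2.94 (SE 0.305, 7.70-fold, adjusted p = 0.00663). It was the only one of 32 peptide receptor genes past the threshold, beside 0.612% of all genes that rose, and the list's median was -0.27, with 0.13 within the array set and 0.42 under quantile normalization. Il13ra2, which encodes a receptor that binds interleukin-13 without the usual signal, went from -3.09, -2.88, -3.74, -3.03 and -3.63 to -0.58, -0.11 and -0.16. It rose by 2.99 (SE 0.256, 7.96-fold, adjusted p = 0.00322, 0.00166 to 0.274 over the alternatives), with a within-set value of 2.75. In the cAMP pathway 2 adenylyl cyclase genes went opposite ways: Adcy2 rose by 2.91 (SE 0.494, adjusted p = 0.0488) and Adcy9 fell by 1.36 (SE 0.188, adjusted p = 0.0229), out of 32 genes tested. Of the 32, 6 were higher and 3 lower at an unadjusted p under 0.05, beside 5.87% and 10.7% of all genes, and the list's median was -0.03, with 0.24 within the array set. Under quantile normalization Adcy9 differed by only -0.25.

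Of the transcription regulators, Lmo4 and Id4 rose. Lmo4, a LIM-only cofactor that is among the genes kept low in adult beta cells, was -3.68, -3.50, -4.11, -3.49 and -3.57 with bGAL and -1.16, -1.16 and -1.12 with Pdx1. It had the tightest Pdx1 values of the genes named here and rose by 2.52 (SE 0.192, 5.74-fold, adjusted p = 0.00222, 0.00104 to 0.274 over the alternatives). Of 20 such disallowed genes it was the only one past the threshold, beside 0.612% of all genes that rose. At an unadjusted p under 0.05, 1 of the 20 was higher and 4 were lower, beside 5.87% and 10.7% of all genes. Among the lower, Aldh1a3 fell by 3.18 without passing (SE 0.512, limma adjusted p = 0.0525). The median of the 20 was 0.02, with -0.16 within the array set and -0.56 under quantile normalization. Id4, an inhibitor of basic helix-loop-helix factors, rose by 2.62 (SE 0.428, adjusted p = 0.0435) as 1 of 28 islet transcription factor genes, beside 0.612% of all genes that rose. The median of these 28 was -0.15, with 0.22 within the array set.

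Further rises concerned adhesion, secreted and other membrane proteins. Flrt3, a leucine-rich adhesion protein, rose by 2.57 (SE 0.313, adjusted p = 0.0139), and by 1.89 within the array set. Crisp1, known as a secreted protein of the epididymis, rose by 2.41 (SE 0.204, adjusted p = 0.00322) from ratios of -6.29 to -5.85. Its Pdx1 values of -3.87 to -3.27 were still far below the reference. Olr1428, named as an olfactory receptor gene, went from a median of 0.14 to 2.30, 2.75 and 2.58, a rise of 2.73 (SE 0.372, adjusted p = 0.0219). Such receptors form a large family of similar genes, and whether this probe reads Olr1428 alone is unknown.

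A probe without a symbol, Rn30014678, also rose far. It was -0.0013, -0.37 and -0.012 on bGAL 2, 4 and 5 and 4.84, 4.98 and 4.91 with Pdx1, a rise of 5.04 (SE 0.206, adjusted p = 0.00168, within-set adjusted p = 0.0215). It and Nts were the 2 probes that passed the blocked fit as well as every fit that held them with 1 array left out. Without the block, 11 probes passed in all of those fits: Nts, Lmo4, Il13ra2, Crisp1, Cdkn3 and 6 probes without a symbol. Cdkn3, a cell-cycle phosphatase gene that rose by 2.05 (SE 0.181, adjusted p = 0.00359), was named after its values were seen.

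Among the genes that passed, 10 with a symbol fell and 63 rose. At an unadjusted p under 0.05 the balance was the other way, with 1053 genes lower and 575 higher, as it was among the calls made without bGAL 4. Beside Calcb, Gast and Adcy9, those that fell were Map3k6 (-2.66), a MAP kinase kinase kinase gene, Adgrg6 (-2.64), an adhesion receptor gene, Plcb3 (-1.96), a phospholipase C gene acting below Gq-coupled receptors, Ros1 (-1.81), a receptor tyrosine kinase gene, Proc (-1.55), the gene of anticoagulant protein C, Golga3 (-1.28), a Golgi protein gene, and Fgb (-1.11), the fibrinogen beta chain gene, with limma adjusted p from 0.0167 to 0.0488 over these 7. Plcb3 was -0.077, -0.029, 0.14 and 0.57 on bGAL 1, 3, 4 and 5 and -1.86, -1.96 and -1.59 with Pdx1. Controls lay near the reference and Pdx1 arrays clearly below it (SE 0.225, adjusted p = 0.0167, 0.00449 to 0.37 over the alternatives; within-set value -1.95). For Map3k6 the lowest control was bGAL 4, and the within-set value was -1.76. None of the 10 passed in the blocked fit.

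Of 53 mitosis genes tested, 19 rose and 0 fell, beside 0.612% of all genes that rose. The other 34 did not pass. A positive difference was found for 46 of the 53, and 37 had an unadjusted p under 0.05 and were higher, beside 5.87% of all genes. All Pdx1 values lay above all bGAL values for 34 of the 53, beside 7.62% of all genes. The list's median difference was 1.22, with 1.10 within the array set and -0.11 over all genes. Over the 42 list genes that had no empty value among the 8 arrays, the median deviation from the control mean was 1.5, 1.49 and 1.42 on the 3 Pdx1 arrays and between -0.20 and 0.16 on the 5 controls. The bGAL 4 array, which shares its technical set with the Pdx1 arrays, was at 0.16. The number of calls did not hold in other settings: 0 of the 53 passed under quantile normalization, where the median was 0.49, 0 in the blocked fit, and 0, 0 and 2 without Pdx1 1, 2 and 3. The list was chosen with a rise of such genes in these data already known.

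Cdk1, the cyclin-dependent kinase that starts mitosis, had ratios of -4.11, -3.55, -4.03, -3.82 and -3.28 with bGAL and -1.33, -1.33 and -1.60 with Pdx1. Islets had less of it than the reference in both groups, which were well apart, and the rise was 2.34 (SE 0.229, 5.06-fold, adjusted p = 0.00551, 6.20e-04 to 0.274 over the alternatives; within-set value 2.40). Aspm, a spindle pole gene, was -3.74, -3.41, -3.99, -3.82 and -3.87 against -1.72, -1.63 and -2.0, a rise of 1.98 (SE 0.191, adjusted p = 0.00538). Stmn1, which encodes the microtubule-destabilizing protein stathmin, was -2.25, -2.47, -2.12, -2.15 and -2.44 against -0.76, -0.60 and -0.85, a rise of 1.55 (SE 0.168, adjusted p = 0.00838). In none of these genes did bGAL 4 stand nearer to the Pdx1 arrays than all other controls.

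Dlgap5, a spindle assembly gene, rose by 1.86 (SE 0.203, adjusted p = 0.00838), Pbk, a mitotic kinase gene, by 2.88 (SE 0.340, adjusted p = 0.0123), and Kifc1, a minus-end kinesin gene, by 1.39 (SE 0.167, adjusted p = 0.0135). The largest rise of the list was in Kif20b, a kinesin of cytokinesis, at 3.37 (SE 0.556, adjusted p = 0.0456). Its other probes did not pass, with differences of 0.55, 2.04 and 0.054, and so the size for this gene is uncertain. Prc1, a protein of the spindle midzone, rose by 2.45 on one probe (SE 0.366, adjusted p = 0.0303) and differed by 0.060 on another. Knstrn, a kinetochore gene, rose by 2.43 (SE 0.404, adjusted p = 0.0463) but by 1.33 against bGAL 4. A second probe of Dlgap5 differed by 1.09 and one of Kifc1 by 0.26, neither past the threshold.

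Of 41 genes of the G1/S transition and DNA replication, 5 rose and 0 fell, beside 0.612% of all genes that rose. This list too was chosen with earlier results of these data known. Of the 41, 16 were higher and 1 lower at an unadjusted p under 0.05, beside 5.87% and 10.7% of all genes. The list's median was 0.69, with 0.48 within the array set and 0.15 under quantile normalization. Ccnd2, cyclin D2, the main D-type cyclin of rodent beta cells, was 1.99, 2.15, 2.54, 2.46 and 2.18 with bGAL and 3.53, 3.55 and 3.96 with Pdx1. It lay above the reference in both groups, without overlap, and rose by 1.41 (SE 0.201, adjusted p = 0.0254, 0.0124 to 0.688 over the alternatives). Ccnd1, cyclin D1, rose by 1.98 (SE 0.296, adjusted p = 0.0421) from values near the reference on 4 controls, Ccna2, cyclin A2, by 2.28 (SE 0.333, adjusted p = 0.0285), and E2f8, a repressive E2F factor, by 2.20 (SE 0.324, adjusted p = 0.0291). For E2f8 the within-set value was 1.26. Mcm6, part of the replicative helicase, rose by 0.93 (SE 0.148, adjusted p = 0.0399), and its difference was 0.14 under quantile normalization. Of 21 cell-cycle inhibitors and p53 targets 0 passed in limma and 5 were higher at an unadjusted p under 0.05, beside 5.87% of all genes. Their median was 0.21, but 0.03 under quantile normalization and near 0 scaled to one spread.

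**Figure D3:**
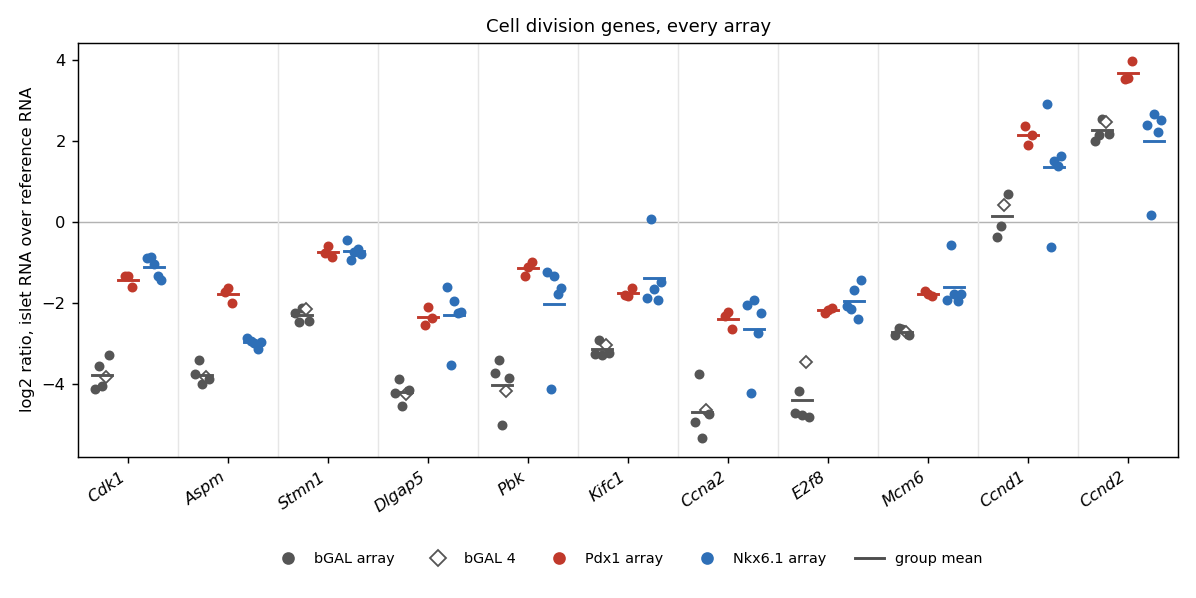
Log2 ratio of islet over reference RNA on every array for 11 genes of mitosis, the G1/S transition and DNA replication. Grey points are bGAL arrays with bGAL 4 as an open diamond, red points Pdx1 arrays, blue points Nkx6.1 arrays, and short bars group means. In each gene the 3 Pdx1 values lie above all bGAL values, and for Cdk1 the 5 Nkx6.1 values, -1.44 to -0.85, are as high.

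The promoters of the mitosis genes with the smallest p are shown because 19 members of this list rose. Capitals mark CCAAT, the letters that the factor NF-Y binds, and TTTGAA, those of the cell-cycle homology region through which mitotic genes are known to be held silent in resting cells, each on either strand (ATTGG and TTCAAA are the reverse forms). CCAAT was found in 35 of the 46 tested mitosis genes with a sequence (76.1%) and in 34.3% of all 27457 windows. TTTGAA was found in 25 of the 46 (54.3%) and in 16% of all windows. Of the 17 mitosis genes with a sequence that rose, 14 held CCAAT (82.4%) and 8 TTTGAA (47.1%), so these shares describe the list more than its rise. In the G1/S and replication list they were 61.3% and 9.68%. The windows are the 250 bases before each start, in GRCr8.
Cdk1 (chr20:19265043-19265292, plus strand): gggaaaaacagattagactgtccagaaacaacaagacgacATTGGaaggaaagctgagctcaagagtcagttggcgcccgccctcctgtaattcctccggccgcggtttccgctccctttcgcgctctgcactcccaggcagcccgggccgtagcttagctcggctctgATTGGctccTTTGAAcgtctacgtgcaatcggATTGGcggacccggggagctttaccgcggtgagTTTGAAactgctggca
Aspm (chr13:53625334-53625583, plus strand): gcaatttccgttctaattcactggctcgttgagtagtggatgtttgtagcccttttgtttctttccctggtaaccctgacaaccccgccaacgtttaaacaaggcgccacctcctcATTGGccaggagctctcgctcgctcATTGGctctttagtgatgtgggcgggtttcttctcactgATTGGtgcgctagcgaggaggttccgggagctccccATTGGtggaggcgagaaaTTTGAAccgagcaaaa
Stmn1 (chr5:151964929-151965178, plus strand): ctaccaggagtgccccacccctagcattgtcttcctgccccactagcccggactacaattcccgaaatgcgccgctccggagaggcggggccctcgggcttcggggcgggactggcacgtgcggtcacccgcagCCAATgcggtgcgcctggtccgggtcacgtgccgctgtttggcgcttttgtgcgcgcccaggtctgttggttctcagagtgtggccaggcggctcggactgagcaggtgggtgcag
Dlgap5 (chr15:23144177-23144426, minus strand): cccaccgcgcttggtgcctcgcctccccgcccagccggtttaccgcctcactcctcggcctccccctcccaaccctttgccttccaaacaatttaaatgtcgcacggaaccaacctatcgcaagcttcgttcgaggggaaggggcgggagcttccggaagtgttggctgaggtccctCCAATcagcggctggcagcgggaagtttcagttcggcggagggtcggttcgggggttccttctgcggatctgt
Cdk1 and Aspm hold both motifs, and Stmn1 and Dlgap5 hold CCAAT alone. The 41 genes that rose outside the mitosis list still include cell division genes, such as Ccna2, E2f8 and Mcm6. Of these 41, 29 had a sequence, with CCAAT in 15 (51.7%) and TTTGAA in 6 (20.7%). Among all genes tested that had a sequence, the shares were 35.4% and 12.4%. TAATTA, a core that homeodomain proteins such as Pdx1 bind, was in 0 of these 29, which allows a share of up to 10.3%. It was in 1 of the 46 mitosis genes (2.17%), which is also 1 of the 17 with a sequence that rose (5.88%). Its share was 3.15% among tested genes with a sequence and 4.94% in all windows. These are counts of letters in a short window and not of bound sites.

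The genes that Pdx1 is best known for in beta cells did not pass the test. Of 22 genes listed as Pdx1 targets 1 rose, Ccnd2, and 0 fell, beside 0.612% and 0.102% of all genes. At an unadjusted p under 0.05, 1 was higher and 8 were lower, beside 5.87% and 10.7% of all genes. The list's median was -0.43, and -0.16 within the array set, but 1.30 under quantile normalization and 0.14 scaled to one spread. Those rescalings were the 2 of 20 alternatives in which its sign turned, so the list has no direction that holds across all settings. Ins1 was 3.48, 4.46, 3.66, 4.49 and 4.14 with bGAL and 5.25, 4.26 and 4.62 with Pdx1. The groups overlapped, and the difference was 0.66 (SE 0.324, adjusted p = 0.353). Ins2, whose sequence is close to that of Ins1 so that the probes may read both, differed by 0.34 (SE 0.277, adjusted p = 0.569), Iapp by 0.63 (SE 0.282, adjusted p = 0.326) and Slc2a2 by 0.35 (SE 0.214, adjusted p = 0.447). Under quantile normalization these 4 differences were 2.69, 2.25, 3.06 and 2.94 and still did not pass, so their size depends on the scaling. Mafa, a beta-cell factor that activates insulin, had too few control values to be tested.

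Of 19 beta-cell genes, 0 passed in limma and 6 were lower at an unadjusted p under 0.05, beside 10.7% of all genes. Their median was -0.65 over the 8 arrays, -0.15 within the array set, 1.30 under quantile normalization and 0.155 scaled to one spread. Those rescalings were the 2 of 20 alternatives in which this list's sign turned, so its direction depends on the scaling. Abcc8, which encodes the sulfonylurea receptor, was 4.40, 4.46, 4.39, 3.88 and 3.88 with bGAL and 3.10, 3.28 and 3.53 with Pdx1. The groups did not overlap, but the difference of -0.90 did not pass (SE 0.218, adjusted p = 0.126, 0.0475 to 0.999 over the alternatives). A second probe of Abcc8 differed by -0.09. Gad2, a glutamate decarboxylase gene, was 3.27 to 4.63 with bGAL and 2.11 to 2.62 with Pdx1 (difference -1.65, SE 0.376, adjusted p = 0.109), with bGAL 4 at 3.48 and bGAL 5 at 3.27 as the lowest controls.

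Glp1r, the receptor of the incretin GLP-1, shows how 1 array can set a value. It was 5.79, 6.55, 5.76, 2.34 and 5.79 on bGAL 1 to 5 and 4.49, 4.22 and 3.80 with Pdx1. The Pdx1 arrays lay below 4 controls and above bGAL 4. The difference was -1.08 (SE 0.852, adjusted p = 0.557), -1.80 without bGAL 4 (adjusted p = 0.0169) and 1.83 against bGAL 4 alone. Nkx6-1 differed by -0.65 (SE 0.278, adjusted p = 0.309) and Vgf, a granin-like precursor protein gene that gave the series its title, by -0.38 (SE 0.273, adjusted p = 0.516).

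**Figure D4:**
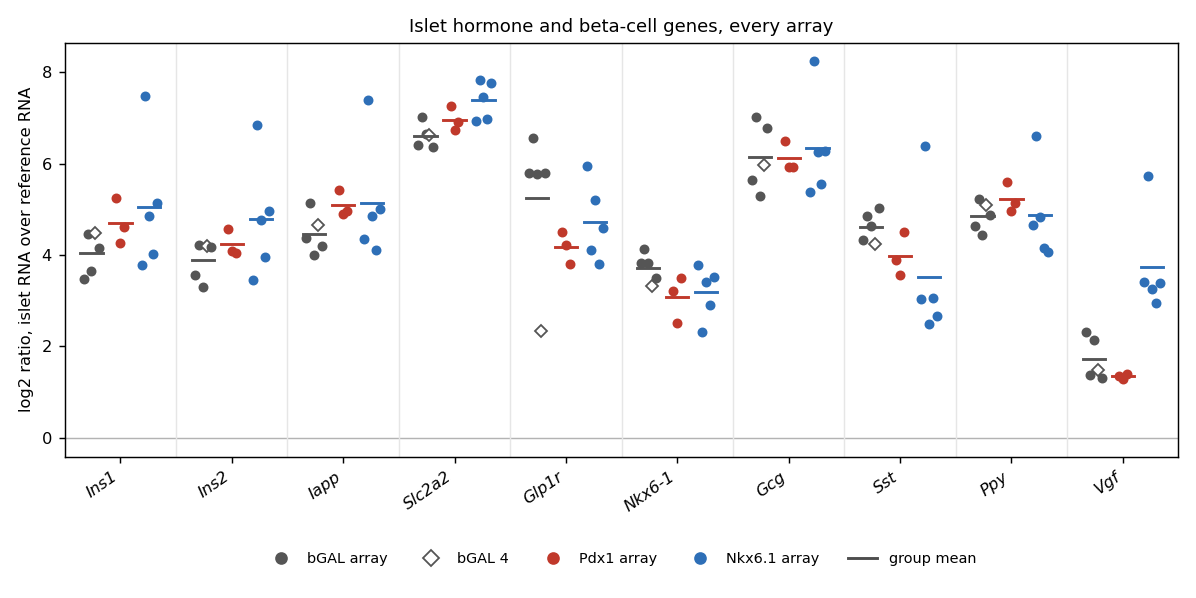
Log2 ratio of islet over reference RNA on every array for 10 islet hormone and beta-cell genes. Grey points are bGAL arrays with bGAL 4 as an open diamond, red points Pdx1 arrays, blue points Nkx6.1 arrays, and short bars group means. The Pdx1 and bGAL values overlap for most of these genes, and for Glp1r bGAL 4, at 2.34, lies below every Pdx1 array.

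The hormones of the other endocrine cells did not pass either. Gcg, the glucagon gene of alpha cells, differed by -0.02 (SE 0.412, adjusted p = 0.981), Sst, the somatostatin gene of delta cells, by -0.63 (SE 0.274, adjusted p = 0.314) and Ppy, the pancreatic polypeptide gene, by 0.37 (SE 0.243, adjusted p = 0.475). In limma 0 of 14 alpha- and PP-cell genes and 0 of 13 delta-cell genes passed, with 1 higher and 3 lower, and 1 higher and 2 lower, at an unadjusted p under 0.05, beside 5.87% of all genes higher and 10.7% lower. Hhex, a homeobox factor of delta cells, was -1.53, -1.45, -1.68, -1.89 and -2.01 with bGAL and -0.91, -0.88 and -0.34 with Pdx1. These groups did not overlap, but the difference of 1.00 did not pass (SE 0.217, adjusted p = 0.0989, 0.0569 to 0.793 over the alternatives). In such whole islets, fewer cells of a type and less RNA per cell cannot be told apart.

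Markers of non-endocrine cells gave no calls. In limma 0 of 16 acinar, 0 of 26 duct, 0 of 28 stromal and endothelial, 0 of 21 leukocyte and 0 of 7 glial genes passed. At an unadjusted p under 0.05, these lists had 1 gene higher each, and 3, 3, 2, 4 and 0 lower in that order, beside 5.87% of all genes higher and 10.7% lower. Their medians lay between -0.28 and -0.05, and within the array set between -0.29 and 0.18. Under quantile normalization they were 0.17 for acinar, -0.54 for duct, -0.65 for stromal and endothelial, -0.56 for leukocyte and -0.27 for glial genes. Their part in the differences above was not tested. Lists of exocytosis (28 genes), ion channels (32), granins and prohormone processing (18), glycolysis (25), the unfolded protein response (30), apoptosis (28), mitochondrial energy metabolism (64), interferon response (32), NF-kB (28) and immediate early genes (34) had 0 calls in either direction. At an unadjusted p under 0.05 these 10 lists held 1 to 7 genes in the direction with more, beside 5.87% of all genes higher and 10.7% lower. The list with 7 was that of immediate early genes, with 7 higher and 2 lower and a median of 0.18 that was -0.31 under quantile normalization, and exocytosis genes had 0 higher and 5 lower. Among them the unfolded protein response and glycolysis were lowest within the array set, with medians of -0.38 and -0.35.

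**Figure D5:**
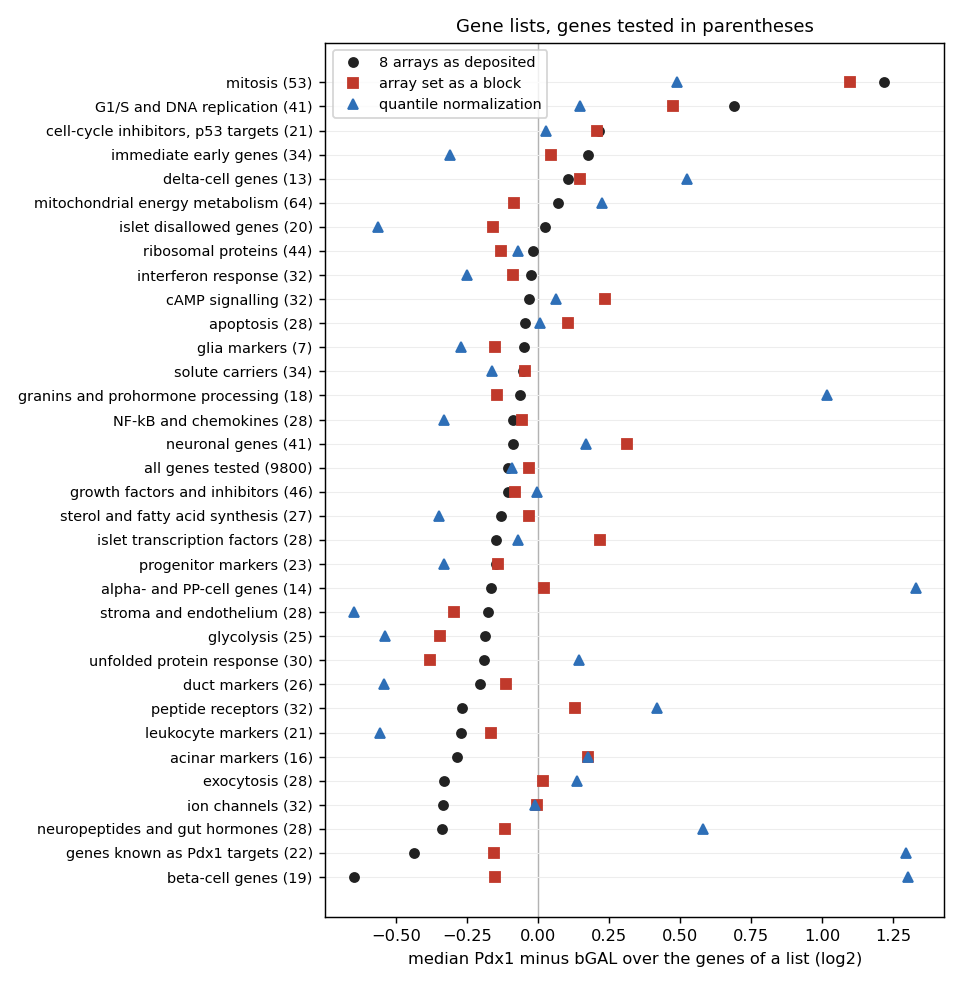
Median log2 difference of Pdx1 from bGAL over the tested genes of each of 33 lists and over all 9800 genes, with the number of genes in parentheses. Circles give the 8 arrays as deposited, squares the array set as a block, and triangles quantile normalization. Mitosis genes, at 1.22, 1.10 and 0.49, and G1/S and DNA replication genes, at 0.69, 0.48 and 0.15, are at the top for the first setting, while beta-cell genes move from -0.65 to 1.30.

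The comparison of Pdx1 with Nkx6.1 asks whether a change belongs to one factor or is shared by both viruses. It shares the Pdx1 arrays with the contrast above. Of 17965 probes, 39 passed (0.217%), 35 of them higher with Pdx1. Restricted to the arrays with few empty values, 3 Pdx1 and 4 Nkx6.1 arrays, 34 of 25600 passed (0.133%), 32 higher. This second fit does not cross the technical array set. Nkx6.1 replicate 2 moved the count to 81 when left out. No other array was left out singly from this comparison, so the weight of the others was not tested.

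Nts was -0.62, -3.31, -4.63 and -2.63 on Nkx6.1 2 to 5, was empty on Nkx6.1 1, and thus lay 9.28 below the Pdx1 arrays (SE 0.804, adjusted p = 4.62e-04). Within the few-empty arrays the adjusted p was 0.0159, and without Nkx6.1 replicate 2 the difference was 10.0 (adjusted p = 1.12e-04). Slc6a15, at -0.79 to -0.069 with Nkx6.1, differed by 4.73 (SE 0.262, adjusted p = 8.39e-05; 0.00146 in the few-empty arrays), and Calb2, at 0.34 to 1.38, by 3.47 (SE 0.317, adjusted p = 0.00206; 0.0151 in the few-empty arrays). Here the low side rests on 4 arrays, not on the 2 that bGAL offers. Gpr149, an orphan receptor gene whose difference from bGAL was 3.12 with 2 control values (SE 0.391, adjusted p = 0.0513), differed from Nkx6.1 by 3.47 (adjusted p = 0.00206, and 0.0151 in the few-empty arrays).

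Enpp2 was 1.94, 1.46, 1.66, 1.43 and 1.95 with Nkx6.1, below the controls as well as below Pdx1, and differed from Pdx1 by 3.42 (SE 0.254, adjusted p = 2.70e-05; 0.00276 in the few-empty arrays). Flrt3 differed by 2.89 (SE 0.464, adjusted p = 0.0188; 0.0151 in the few-empty arrays). Crisp1 (2.28, SE 0.320, adjusted p = 0.00719), Olr1428 (2.31, SE 0.379, adjusted p = 0.0204) and Gpr37 (2.27, SE 0.413, adjusted p = 0.0459) passed over all arrays but not in the few-empty arrays. Lmo4 (2.23, adjusted p = 0.0578), Il13ra2 (2.49, adjusted p = 0.102) and Penk (1.74, adjusted p = 0.0706) did not pass. Without Nkx6.1 replicate 2, Penk differed by 2.04 (adjusted p = 4.44e-04) and Lmo4 by 2.40 (adjusted p = 0.0281). As only this array was left out singly here, those values do not count as passing.

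Over the cell division lists the median difference between the factors was near 0, with members on both sides of it. The median difference of Pdx1 from Nkx6.1 over the 53 mitosis genes was -0.02, and 0.05 in the few-empty arrays, beside -0.04 and -0.03 over all genes. Cdk1 differed by -0.31 (SE 0.244, adjusted p = 0.778) and Stmn1 by -0.02 (SE 0.194, adjusted p = 0.986). Pttg1, the securin gene, differed by -1.27 without passing. Aspm alone of the list passed, 1.19 higher with Pdx1 (SE 0.199, adjusted p = 0.0235, 0.0115 to 0.445 over the alternatives). Among the 41 genes of the G1/S transition and DNA replication the median was -0.11, with Ccnd2 differing by 1.69 (SE 0.461, adjusted p = 0.298) and Ccnd1 by 0.78 (SE 0.588, adjusted p = 0.776). A missed threshold does not show that the 2 factors act alike on these genes. Of the 10 genes with a symbol that fell, 0 differed between the factors in limma and 5 had an unadjusted p under 0.05, with Pdx1 minus Nkx6.1 from -1.94 in Adgrg6 to -0.06 in Gast. Calcb differed by -0.16 (SE 0.427, adjusted p = 0.924) and Ros1 by -0.23 (SE 0.483, adjusted p = 0.90).

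In the delta-cell list the factors differed at 2 of 13 genes, beside 0.204% of all genes higher with Pdx1. The list was chosen with earlier results of these data known, so this count is no support for a delta-cell pattern. Hhex was -3.26, -3.86, -3.13, -3.49 and -3.08 with Nkx6.1, 2.65 below Pdx1 (SE 0.248, adjusted p = 2.66e-04). Rbp4, the retinol-binding protein gene, was 1.41, 2.81, 1.5, 1.96 and 1.31 with Nkx6.1, 2.95 below Pdx1 (adjusted p = 0.00149; 0.0804 in the few-empty arrays), while its Pdx1 and bGAL means of 4.75 and 4.64 were close. For both genes the Nkx6.1 arrays lay below bGAL and Pdx1 arrays alike. Rbp4 was named after its values were seen.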

How the data were processed

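Gene expression was measured on 2-colour spotted rat oligonucleotide arrays, 5 with bGAL, 3 with Pdx1 and 5 with Nkx6.1 virus. Per the labels' protocols, 500 ng of RNA was amplified in 2 rounds, labelled with Cy5 and hybridized with Cy3-labelled reference RNA. The authors deposited a table of log2 ratios of islet over reference, centred near 0. Base 2 was inferred from the range of the values. The sources used here do not give the background correction, the normalization or the rule for empty values. Since only ratios were used, signal over background is unknown, and precision is limited by how few arrays there are.

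Of 26984 probes, 22 control spots were left out. Of the other 26962, 15807 carried 1 symbol from the platform annotation, 0 several and 11155 none; 12034 symbols were current, 3728 were updated through RefSeq and 45 were not matched. Probes with at least 2 values in both groups were tested (17965, with 11234 carrying a symbol). The groups were compared with limma 3.58.1 in R 4.3.3 (lmFit and eBayes, two-sided, Benjamini-Hochberg over all probes tested). The Nkx6.1 comparison used 1 model with 3 groups over 13 arrays. A fit uses only the arrays with a value for a probe. The code was tested on simulated data. A gene took its probe with the most values, the lowest ID in a tie. The 33 lists held 1321 genes, 873 of them tested. Members and lists were chosen with earlier results of these data known.

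Genes were named by rule: Pdx1, Nkx6-1, Ins1, Ins2, Iapp, Slc2a2, Mafa, Glp1r, Gcg, Sst, Ppy, Nts, Penk and Vgf; the 15 largest rises and falls with at least 3 values a group and no overlap; the 4 largest in each direction with 2 values in a group; up to 6 members with the smallest p of a list; and up to 15 genes that passed with the block and in every fit without 1 array. A further gene of the rule is not reported here. The array set was split at 30% of probes empty, which was defined from the data. There were 20 alternatives for the contrast: centring, quantile normalization, scaling to one spread, complete probes, at least 3 values a group, values near 0 as missing, all 13 arrays, a variance trend, robust moderation, the array set as a block, few-empty arrays alone, the replicate number as a block, and each of the 8 arrays left out. The labels do not say that a replicate number is shared between viruses. Deviations from the group means of arrays with the same number correlated at -0.14, 0.051 and 0.069 across probes. With so few arrays and a technical split among the controls, this cannot exclude pairing.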

Additional observations from a re-analysis of the deposited data

Results flagged for a closer look

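On the 51 named genes with values on 4 or more control arrays, the highest and lowest control were checked for standing far from the others, which chance alone gives in about 5% of groups. Glp1r on bGAL 4 had a log2 ratio of 2.34, while the other 4 controls lay between 5.76 and 6.55. Map3k6 on bGAL 4 had -1.27, while its other 3 controls lay between -0.16 and -0.00068. Both values are from bGAL 4, the control array with few empty values. Only these 2 of the 51 genes were flagged, which does not exceed the share that chance alone gives.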

How the results depend on the processing

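The direction of all 109 calls (94 higher, 15 lower) held within the array set, as their lack of overlap required. Their count depended on the settings. It was 187 (46 lower) for complete probes, 56 (46 higher) with a variance trend, 2 (2 higher, 0 lower) with the array set blocked and 0 (0 higher, 0 lower; 3061 at an unadjusted p under 0.05) in few-empty arrays alone. Scaling to one spread gave 61 higher and 33 lower, and quantile normalization 39 lower. The replicate number as a block gave 442 (162 higher, 280 lower), but the labels do not say that the numbers pair the samples. With 1 array left out the count was 12 to 771, the higher calls 12 to 245 and the lower calls 0 to 526, the largest each time without bGAL 4. The 19 mitosis genes that rose became 0 under quantile normalization, 4 with one spread, 7 with a trend, 0 with the array set as a block, 0 in few-empty arrays, and 0 to 26 with 1 array left out. Calls against Nkx6.1 went from 39 to 96 under quantile normalization, 19 with the replicate block and 81 without Nkx6.1 replicate 2. The causes were not tested. Signs turned in genes that had not passed. Under quantile normalization the differences were 0.99 for Nkx6-1, 1.42 for Glp1r, 2.52 for Gcg, 1.29 for Sst, 0.31 for Vgf and 0.82 for Abcc8. With one spread they were 0.12 for Nkx6-1, 0.096 for Glp1r, 1.38 for Gcg and 0.34 for Sst. With the array set as a block, or in few-empty arrays, they were 1.83 for Glp1r and 0.14 for Gcg. Gcg was 0.13 with the replicate block and -0.24 to 0.19 with 1 array left out, and Rbp4 was -0.15 to 0.25 with 1 array left out, below 0 without Pdx1 replicate 3. Log ratios alone leave the signal over background of every value unknown.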
